A study of Mus musculus with 6 samples.

Results

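Tight junctions were described here through 9 genes chosen by name: the claudins Cldn1, Cldn3, Cldn4, Cldn7 and Cldn15, occludin (Ocln), the scaffold protein ZO-1 (Tjp1), the adhesion molecule JAM-A (F11r) and the membrane protein MAL2 (Mal2). All 9 were measured, each by 1 probe set, among 30142 genes tested. The tumours grew from ID8-VEGF cells, a mouse ovarian surface epithelial line made to secrete vascular endothelial growth factor, which had been placed beneath the membrane around the ovary. Late-stage tumours were taken from 3 mice named C1M3, C1M5 and C2M3, and each gave 1 primary and 1 metastatic tumour, so that 3 arrays stood in each group. All arrays thus share the cell line and its VEGF expression, no tumour without VEGF was profiled here, and the labels used here give neither the age of the mice nor the organ each metastatic tumour came from. The mouse of 1 primary tumour is C2M3 by its title and donor label but C2M2 by its source name, and the donor label was followed.

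Tight junctions seal the space between neighbouring epithelial cells near their apical side. Claudins form the strands and set which ions may pass, occludin and JAM proteins sit beside them in the membrane, and ZO proteins tie these membrane proteins to actin. Claudin-3, claudin-4 and claudin-7 are typical of simple epithelia and are abundant in many human ovarian carcinomas, whereas the normal surface layer of the ovary is a mesothelium-like epithelium.

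Values are log2 intensities, and a difference of 1 is 2-fold. Array medians over the 30142 genes lay between 4.90 and 5.15. To judge which genes stood above the signal of silent genes, the 95th percentile of 1717 olfactory and vomeronasal receptor genes was taken on each array, since these receptors are used in sensory neurons. This limit was 5.85, 4.87 and 4.78 in the primary tumours of C1M3, C1M5 and C2M3, and 5.03, 5.74 and 6.11 in their metastatic tumours, so 3 arrays had a higher limit, the C1M3 primary and both the C1M5 and C2M3 metastatic ones. Probe sets differ in how they respond to RNA, so a gene under the limit is not shown to be silent, and levels of different genes are not ranked. Of general epithelial markers, 6 of 17 measured (35.3%) were above the limit on all 6 arrays, 5 on some and 6 on none. The share above it on all 6 arrays was 32.7% over all genes tested. The epithelial markers above it on all arrays were the keratin genes Krt8, Krt18 and Krt19, and Cdh3, Jup and Ppl. Of mesothelial and ovarian surface markers, 13 of 14 were above it on all arrays. Of the markers of oviduct, intestinal and pancreatic acinar epithelium 0 of 9 each were, and of liver markers 1 of 9. Above the limit on some arrays were 4 oviduct, 1 intestinal and 2 pancreatic markers. Pancreatic Cela1 was above it on 5 arrays and had 5.86 to 11.32 over all 6. The tissue contains host cells as well as tumour cells, and in bulk RNA fewer cells of a type and less RNA per cell cannot be told apart.

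Among the 9 genes, 4 were above the limit on all 6 arrays (Cldn15, Tjp1, F11r and Mal2), 1 on a single array (Cldn1) and 4 on none (Cldn3, Cldn4, Cldn7 and Ocln). Over all genes tested, 32.7% were above it on all 6 arrays. With the 99th percentile as the limit, a stricter level chosen after the values were seen, 2 of the 9 remained above it on all arrays, Tjp1 and F11r.

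**Figure D1:**
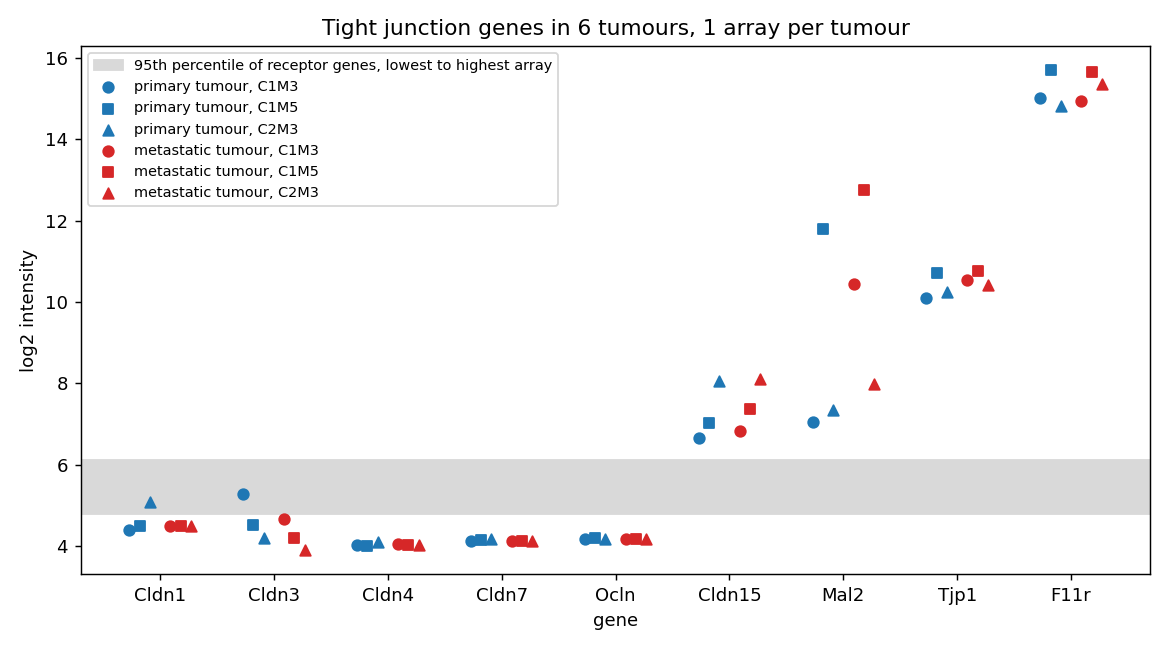
Log2 intensity (y axis) of the 9 genes (x axis) in each of the 6 tumours, with colour for the group and marker shape for the mouse. The grey band spans the per-array 95th percentile of receptor genes, from 4.78 to 6.11. Cldn4, Cldn7 and Ocln lie below the band on every array, F11r and Tjp1 far above it, and Mal2 spreads over 5.70 log2 units.

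The epithelial claudins Cldn4 and Cldn7 gave almost the same signal in every tumour. Cldn4, which encodes a claudin that serves as a receptor of a clostridial enterotoxin, had 4.04, 4.01 and 4.10 in the primary tumours of C1M3, C1M5 and C2M3 and 4.05, 4.04 and 4.04 in their metastatic tumours. Cldn7 had 4.12, 4.14 and 4.17 in the primary and 4.12 in each metastatic tumour. Both stayed below the limit on every array, and the groups overlapped. Occludin was the flattest of the 9, and its deposited value was identical on 5 of 6 arrays, at 4.18. The differences between groups were -0.01 (SE 0.04) for Cldn4, -0.02 (SE 0.04) for Cldn7 and 0.00 (SE 0.03) for Ocln.

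Cldn3, which encodes the other classic enterotoxin receptor, had 5.28, 4.51 and 4.21 among primary and 4.66, 4.21 and 3.90 among metastatic tumours from mice C1M3, C1M5 and C2M3. Its metastatic value was below the primary value in every mouse, by 0.63, 0.29 and 0.32, while the groups overlapped and every value lay under the limit of its own array. Primary tumours averaged 4.67 ± 0.55 (SD, n = 3) and metastatic ones 4.25 ± 0.38, which differ by -0.41 (SE 0.35, adjusted p = 0.842, limma). Without the primary tumour of C1M3 the difference was -0.10, without that of C2M3 -0.64, and with the C2M3 metastatic array left out -0.23. With the mouse as a block its unadjusted p was 0.0251 (limma moderated test, 3 pairs) and its adjusted p 0.841. The primary tumour of C1M3, where Cldn3 was highest, also had the highest mean of the proliferation markers, 9.24 against 6.82 to 8.01 on the other arrays, and the lowest mean of the macrophage markers, 6.35 against 7.97 to 8.81. The part of either in the Cldn3 values was not tested.

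Cldn1, a claudin best known for the skin barrier, had 4.39, 4.49 and 5.08 in the primary tumours and 4.50 in each of the metastatic tumours. Only the primary tumour of C2M3 stood out, and it was the 1 array on which Cldn1 passed the limit, there 4.78. That tumour also had the highest means of the adipocyte markers (10.87, against 5.36 to 8.60), the fibroblast markers (9.45, against 6.40 to 8.41), the smooth muscle markers (7.70, against 5.77 to 6.92) and the endothelial markers (7.47, against 5.53 to 6.64). Of these lists, 2 of 9 adipocyte, 4 of 9 fibroblast, 4 of 10 smooth muscle and 4 of 11 endothelial markers were above the limit on all arrays, and their part in the Cldn1 value was not tested. The group difference of -0.15 (SE 0.19) became 0.06 without that tumour.

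The letters before the start sites of some of these genes are shown as a description. Low and high signal here mean under or above the limit on every array. Windows of 250 bases before the most upstream start listed were taken from RefSeq promoters of build GRCm38.p6, and 8 of the 9 genes matched by symbol. Mal2 did not. Of the windows below, 2 belong to genes with flat low signal (Cldn4 and Ocln) and the others to genes with high signal (Tjp1 and F11r). The window of Cldn7, also flat and low, is not printed. Capitals mark CACCTG or CAGGTG, the same E-box read on either strand, a sequence that Snail and ZEB repressors can bind.
Cldn4 (chr5:134946935-134947184, minus strand): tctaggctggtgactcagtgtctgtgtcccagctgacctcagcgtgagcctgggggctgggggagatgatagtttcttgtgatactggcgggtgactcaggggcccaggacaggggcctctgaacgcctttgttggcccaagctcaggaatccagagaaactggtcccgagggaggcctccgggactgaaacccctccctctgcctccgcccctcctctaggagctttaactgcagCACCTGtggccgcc
Ocln (chr13:100552719-100552968, minus strand): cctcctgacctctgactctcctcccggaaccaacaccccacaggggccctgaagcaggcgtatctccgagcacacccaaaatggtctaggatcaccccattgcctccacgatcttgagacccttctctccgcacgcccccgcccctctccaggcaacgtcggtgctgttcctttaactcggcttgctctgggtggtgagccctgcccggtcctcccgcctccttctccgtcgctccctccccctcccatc
Tjp1 (chr7:65371245-65371494, minus strand): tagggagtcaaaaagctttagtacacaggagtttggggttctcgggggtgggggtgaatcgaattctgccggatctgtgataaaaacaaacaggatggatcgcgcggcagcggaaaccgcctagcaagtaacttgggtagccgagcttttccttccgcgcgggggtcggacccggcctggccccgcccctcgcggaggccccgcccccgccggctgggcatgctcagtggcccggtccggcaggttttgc
F11r (chr1:171437311-171437560, plus strand): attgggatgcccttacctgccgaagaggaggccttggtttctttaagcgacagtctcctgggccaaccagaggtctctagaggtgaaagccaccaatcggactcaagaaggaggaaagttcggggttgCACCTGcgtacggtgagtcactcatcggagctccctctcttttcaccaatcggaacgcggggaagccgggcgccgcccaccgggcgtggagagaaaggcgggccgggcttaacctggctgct
An E-box match was found in 2 of the 8 windows, 14 bases before the start of Cldn4 and 122 bases before that of F11r, against 17.1% of the 27025 genes with a window. The match thus occurred both in a gene under the limit on every array and in one above it on every array. At a further start listed for each of Cldn7 and Ocln, the window held 2 matches. CpG dinucleotides numbered 7 for Cldn4, 14 for Ocln, 22 for Tjp1 and 17 for F11r, with a median of 6 over all windows, and each of the 8 windows had at least that many. These are letter matches only and say nothing about binding or methylation.

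Of the claudins chosen by name, only Cldn15 was above the limit on every array. It encodes a pore-forming claudin known from the intestine and from mesothelium. Its log2 intensity was 6.65, 7.04 and 8.05 among primary and 6.82, 7.37 and 8.10 among metastatic tumours from mice C1M3, C1M5 and C2M3. The values ran in the same order of mice in both groups, lowest in C1M3 and highest in C2M3, and the groups overlapped. Mouse means were 6.74, 7.20 and 8.07, and the F test between mice gave an unadjusted p of 0.00199 and an adjusted p of 0.583 (limma). The metastatic tumour was higher in each mouse, by 0.18, 0.33 and 0.04, and the mean difference was 0.18 (SE 0.50). It turned to -0.12 when the C1M3 primary tumour was left out and to -0.15 when the C2M3 metastatic one was.

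Tjp1, which encodes ZO-1, had 10.10, 10.71 and 10.25 among primary and 10.55, 10.77 and 10.41 among metastatic tumours. It was higher in the metastatic tumour of each mouse, by 0.45, 0.06 and 0.16, and the groups overlapped. The means were 10.35 ± 0.32 (SD, n = 3) and 10.58 ± 0.18, a difference of 0.22 (SE 0.19, adjusted p = 0.842, limma), or 0.12 with each array centred on its median. It was 0.10 with the C1M3 primary array left out, 0.40 with the C1M5 primary and 0.13 with the C1M5 metastatic array left out. F11r, which encodes a junctional adhesion molecule found in epithelium, endothelium and leukocytes, had 15.03, 15.71 and 14.82 among primary and 14.94, 15.66 and 15.36 among metastatic tumours. Within mice it differed by -0.09, -0.05 and 0.55, with a mean difference of 0.14 (SE 0.31) that was -0.07 without the tumours of C2M3.

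Mal2 had the widest spread of the 9. It encodes a membrane protein of the MAL family that is needed for transport across polarised epithelial cells and is not a strand protein of the junction. Its log2 intensity was 7.05, 11.79 and 7.35 among primary and 10.45, 12.75 and 7.98 among metastatic tumours from mice C1M3, C1M5 and C2M3. Both tumours of C1M5 were high, both of C2M3 were low, and C1M3 joined a low primary to a higher metastatic tumour. The metastatic value exceeded the primary value by 3.40, 0.97 and 0.63 in these mice, while the groups overlapped. The means were 8.73 ± 2.65 (SD, n = 3) and 10.40 ± 2.38, a difference of 1.67 (SE 1.85, adjusted p = 0.845, limma). Leaving out single arrays moved that difference between 0.49, when the C1M5 metastatic tumour was dropped, and 3.20, when the C1M5 primary one was. Dropping the primary tumour of C1M3 gave 0.83, dropping that of C2M3 gave 0.98, and dropping the metastatic one of C2M3 gave 2.87. Mouse means were 8.75, 12.27 and 7.67, and the F test between mice gave an unadjusted p of 0.0257 and an adjusted p of 0.743 (limma).

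**Figure D2:**
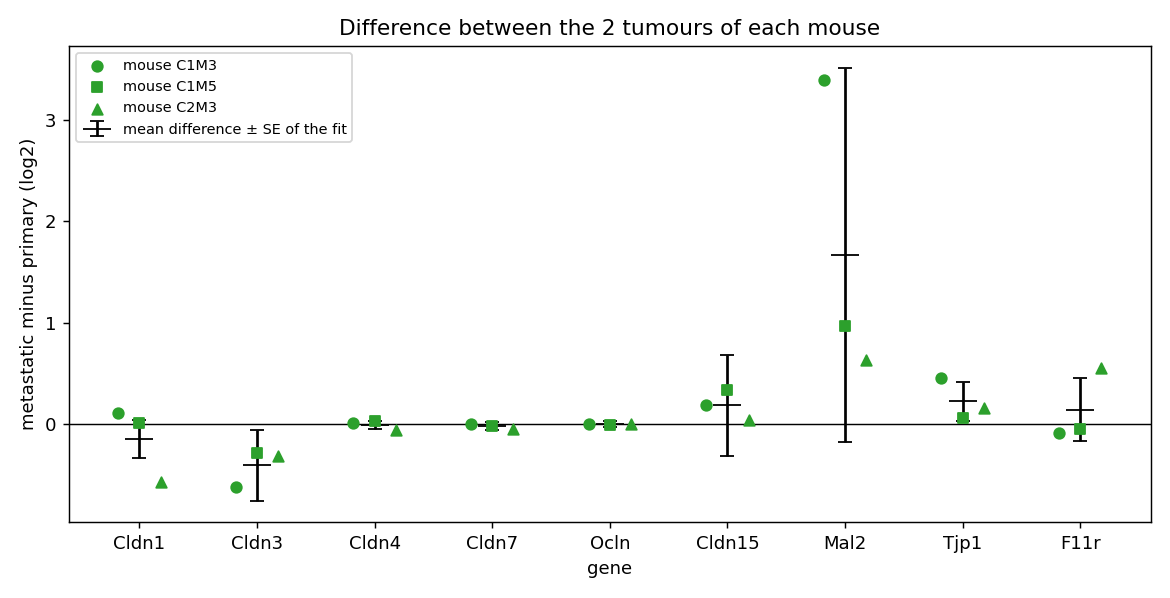
Metastatic minus primary log2 intensity (y axis) of each gene (x axis) within each mouse, with the mean difference and its moderated SE from limma as black bars. Points of Cldn3 lie below 0 and those of Cldn15, Tjp1 and Mal2 above 0 in all 3 mice, and the widest point is Mal2 in C1M3 at 3.40.

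Taking the 9 genes as a group, none was called between metastatic and primary tumours at an adjusted p under 0.05 (limma), where 0% of all genes were called. At an unadjusted p under 0.05 there were 0 of 9, against 4.21% of all genes, and with the mouse as a block 1 of 9 (Cldn3), against 4.93%. The median difference over the 9 was 0.00, against 0.02 over all genes tested. A difference of 1 sign in all 3 mice was higher in metastatic tumours for 3 genes (Cldn15, Tjp1 and Mal2), where 11.1% of all genes were, and lower for 1 (Cldn3), where 8.64% were. No gene of the 9 had groups that did not overlap, against 7.63% of all genes. Between mice, 0 of 9 were called at an adjusted p under 0.05, with 0% of all genes called, and 3 of 9 (Cldn3, Cldn15 and Mal2) had an unadjusted p under 0.05, against 6.1% of all genes. These shares are descriptions of 9 genes, and precision is limited by having 6 arrays from 3 mice.

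Few of the other claudins had signal above the limit. Of 25 measured, 2 were above it on all 6 arrays, Cldn34c1 and the claudin-domain gene Cldnd1, while 6 were above it on some arrays and 17 on none. None was called between groups in either direction (limma), and the list's median difference was 0.00. Cldn5, the claudin of blood vessel endothelium, had 5.83, 7.82 and 10.56 among primary and 6.16, 6.0 and 8.38 among metastatic tumours from mice C1M3, C1M5 and C2M3, a difference of -1.22 (SE 1.41, adjusted p = 0.848). Its highest array was the primary tumour of C2M3, where the endothelial markers were also highest. Over those 6 arrays the endothelial markers had means of 5.79, 6.42, 7.47, 6.64, 5.53 and 6.34, and their part in the Cldn5 values was not tested. Cldn22 was the 1 other claudin of 25 whose groups did not overlap, against 7.63% of all genes. It had 4.86, 5.43 and 6.34 among primary and 4.70, 4.62 and 4.54 among metastatic tumours. It differed by -0.92 (SE 0.39, adjusted p = 0.842, limma) and passed the limit only in the primary tumours of C1M5 and C2M3. Those arrays had the highest means of the adipocyte (8.60 and 10.87), fibroblast (8.41 and 9.45) and smooth muscle markers (6.92 and 7.70). The part of these markers in the Cldn22 values was not tested. Cldnd1 differed by -0.54 (SE 0.39), with its highest value, 12.88, in the primary tumour of C1M3 and 11.38 to 11.63 elsewhere. It was lower in the metastatic tumour of each mouse, with differences of -1.25 in C1M3, -0.17 in C1M5 and -0.21 in C2M3.

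Other membrane proteins of the junction were divided. Of 17 measured, 6 were above the limit on all 6 arrays, 5 on some and 6 on none, and none was called between groups. Named after their values were seen, the angulins Lsr and Ildr2, which gather tricellulin where 3 cells meet, had steady high signal, 12.80 to 13.13 and 14.17 to 14.66. Another angulin, Ildr1, had the identical value of 5.07 on all 6 arrays and was above the limit on 3 of them. Tricellulin itself, encoded by Marveld2, lay under the limit on all arrays with 4.20 on 5 of 6, as did Marveld3, 3.94 to 4.25. Epcam, the epithelial adhesion molecule that binds claudin-7, had 4.98, 5.43 and 5.02 among primary and 5.02, 5.32 and 4.77 among metastatic tumours. Epcam passed the limit only in the primary tumours of C1M5 and C2M3, the arrays with the lowest limits (4.87 and 4.78). Its values of 5.02 and 5.32 in the metastatic tumours of C1M3 and C1M5 lay under limits of 5.03 and 5.74. Cxadr, the coxsackievirus and adenovirus receptor, had 7.93, 10.53 and 7.78 among primary and 8.23, 10.91 and 8.10 among metastatic tumours. It was higher in the metastatic tumour of each mouse, by 0.30, 0.38 and 0.32, and far higher in C1M5 than in the other mice. With the mouse as a block its difference of 0.33 (SE 0.05) had an unadjusted p of 0.00762 and an adjusted p of 0.841, and the F test between mice gave an unadjusted p of 4e-05 and an adjusted p of 0.405 (limma, 6 arrays). Jam2, a junctional adhesion molecule of endothelium, had 5.51, 8.10 and 8.81 among primary and 7.12, 7.18 and 8.77 among metastatic tumours. Clmp, an adhesion molecule related to Cxadr, differed by -0.68 (SE 0.44) and Mal, the relative of Mal2, by 0.45 (SE 0.45), the latter through the metastatic tumour of C2M3 at 6.21.

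Cytoplasmic scaffolds and adaptors had signal more often. Of 30 measured, 20 were above the limit on all 6 arrays, 7 on some and 3 on none, and none was called between groups, with 11 higher and 19 lower and a median difference of -0.04. Tjp3, the ZO protein most restricted to epithelium, was among the 3, with the identical value of 4.12 on all 6 arrays. Cgn, which encodes cingulin, had 6.30 to 6.44, its relative Cgnl1 8.23 to 8.57, and the polarity gene Mpp5 (PALS1) 7.65 to 8.18. The widest differences were those of Ybx3, a Y-box factor that binds ZO-1, and Vcl, which encodes vinculin of cell-matrix and cell-cell contacts. Ybx3 had 13.03, 12.58 and 12.26 among primary and 11.38, 12.06 and 10.96 among metastatic tumours from mice C1M3, C1M5 and C2M3. Its groups did not overlap, and it differed by -1.16 (SE 0.35, unadjusted p = 0.0216, adjusted p = 0.842, limma, 3 against 3 arrays). Vcl had 12.24, 12.32 and 12.15 among primary and 11.85, 12.06 and 10.69 among metastatic tumours, a difference of -0.70 (SE 0.38), again without overlap. Mpdz, which encodes a multi-PDZ scaffold, was the 1 scaffold gene higher without overlap, with 6.44 to 6.74 in primary and 6.77 to 7.02 in metastatic tumours, a difference of 0.24 (SE 0.12). Of the 30 scaffold genes, 1 was thus higher and 2 lower without overlap, against 7.63% of all genes in either direction.

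**Figure D3:**
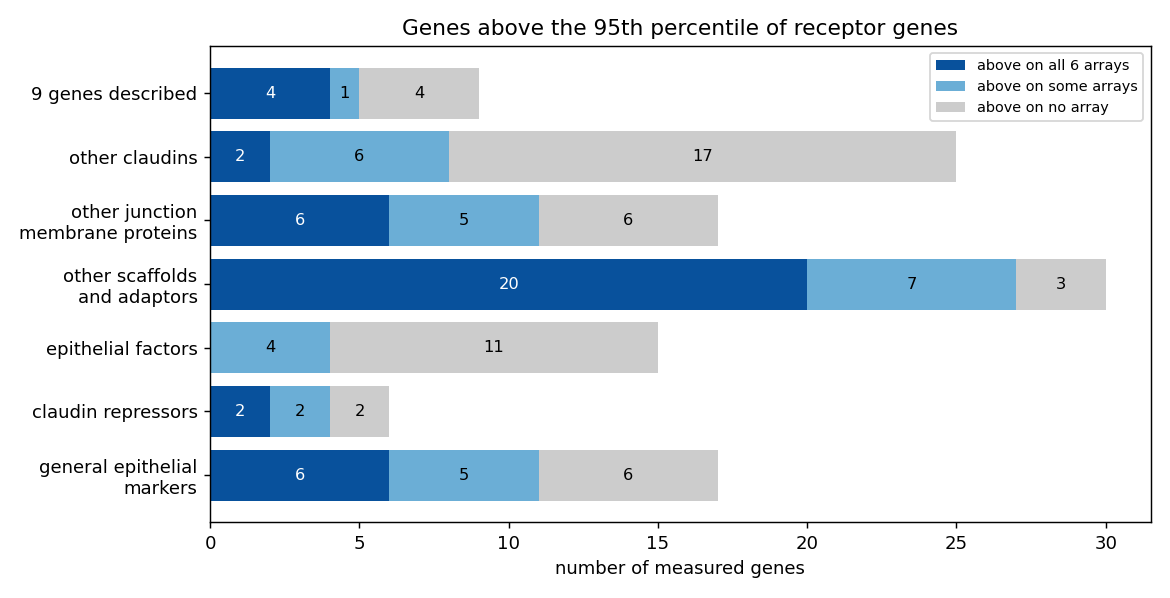
Number of measured genes (x axis) in the 9 genes described and in 6 related lists (y axis) that exceeded the 95th percentile of receptor genes on all 6 arrays, on some or on none. Scaffolds and adaptors had 20 of 30 above it on all arrays, against 2 of 25 other claudins and 0 of 15 epithelial transcription factors and splicing regulators.

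Transcription factors and splicing regulators of epithelium, and repressors of junction genes, were each counted against the limit. Of 15 epithelial transcription factors and splicing regulators, 0 were above the limit on all 6 arrays, 4 on some and 11 on none, and none was called between groups. Grhl2, a Grainyhead factor that activates claudin genes, had 4.43 to 4.56, and the splicing regulator Esrp1 had 3.78 to 3.97. Klf5 differed by -0.43 (SE 0.21), Pax8 by -0.15 (SE 0.08) and Elf3 by 0.14 (SE 0.21). The groups did not overlap for 2 of the 15, Klf5 and Pax8, against 7.63% of all genes, and Pax8 was under the limit on every array. Of 6 measured repressors of claudin and cadherin genes, Snai2 and Zeb1 were above the limit on all 6 arrays, 2 on some and 2 on none, and none was called. Snai2, which encodes Slug, had 8.25, 7.66 and 7.30 among primary and 7.75, 7.76 and 7.24 among metastatic tumours. Zeb1 had 7.24, 7.88 and 7.84 in the primary and 7.57 in each metastatic tumour. Snai1 differed by 0.12 (SE 0.12) and Twist1, under the limit on all arrays, by -0.09 (SE 0.24).

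Mal2, Cxadr and several epithelial and mesothelial genes shared their highest arrays. Heg1, which encodes a mucin-like membrane protein and was kept in the list of scaffolds and adaptors, had 9.85, 11.89 and 10.03 among primary and 10.31, 11.96 and 9.95 among metastatic tumours, with an unadjusted p of 0.00231 and an adjusted p of 0.583 between mice (limma F test, 6 arrays). Krt19 had 13.99, 16.11 and 13.41 among primary and 13.54, 16.65 and 14.35 among metastatic tumours, Krt8 ranged from 11.20 to 14.20, and Ppl, which encodes periplakin, from 6.87 to 9.09. Msln, the mesothelin gene, had 7.21, 10.91 and 8.02 among primary and 7.69, 11.13 and 7.15 among metastatic tumours. Other markers of the epithelial and mesothelial lists had their highest value elsewhere, Cdh3 and Wt1 in the metastatic tumour of C1M3. Spint2 and Ap1m2 had theirs in the primary tumour of C1M3, and St14 in that of C2M3. Lrrn4, Nkain4, Rspo1, Slc9a3r1, Bnc1, Spint1 and Pkp3 had theirs in the metastatic tumour of C2M3. Prom2 had 4.16 to 4.17 over the arrays, and Rab25 had 4.56 on each. The mean of the 17 general epithelial markers was 7.50 and 7.43 in the tumours of C1M5, against 6.69 to 6.84 on the other arrays. The mean of the 14 mesothelial markers was 10.48 and 10.82 in C1M5, 10.12 and 10.59 in C2M3 and 9.19 and 9.43 in C1M3. An unadjusted p under 0.05 between mice (limma F test) was found for 6 epithelial and 6 mesothelial markers, against 6.1% of all genes, and none was called. Krt18 and Krt8 differed between groups by -0.85 (SE 0.50) and -0.61 (SE 0.88). Within C1M3, where Mal2 differed by 3.40, the median difference of the list was 0.00 for general epithelial and 0.17 for mesothelial markers, but 1.51 for macrophage, 0.82 for fibroblast, 0.75 for endothelial and -1.43 for proliferation markers. The part of any of these in the Mal2 values was not tested.

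**Figure D4:**
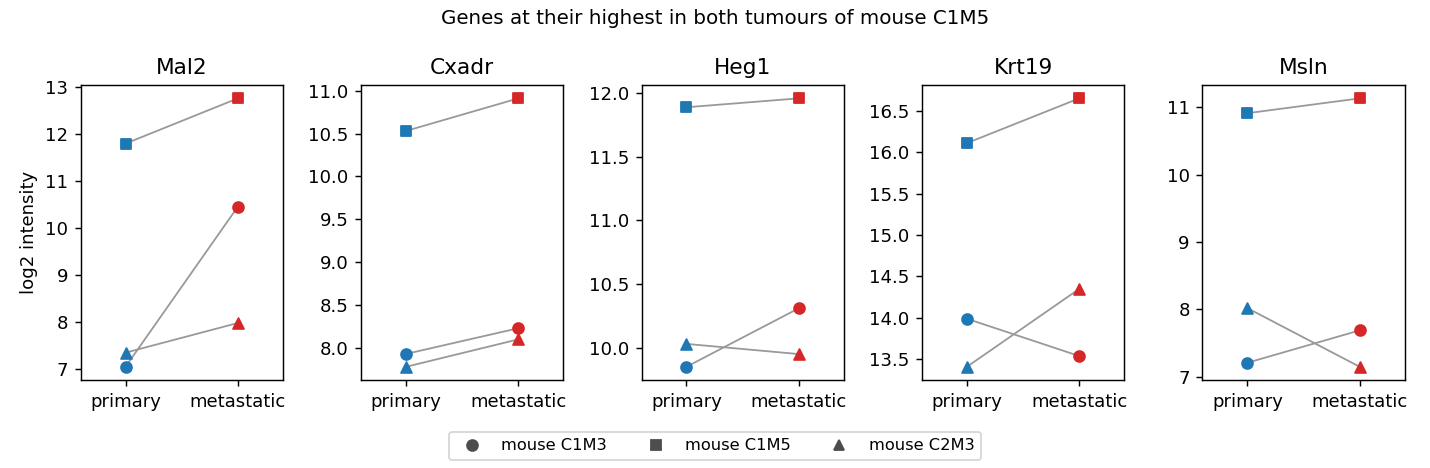
Log2 intensity (y axis, a scale of its own for each gene) of Mal2, Cxadr, Heg1, Krt19 and Msln in the primary and metastatic tumour of each mouse, with a grey line joining the 2 tumours of a mouse. In all 5 genes the squares of mouse C1M5 are the highest points of both groups. The 5 were picked with their values known, and other markers had their highest value elsewhere.

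Genes most like the members were sought by Pearson correlation over the 6 arrays, among 832 genes with a range of at least 2 on the log2 scale, and are given as descriptions of 6 arrays that share 3 mice. For the mean of Cldn3, Cldn4 and Cldn7 the closest were Efnb1 (r = 0.988), Ncapd2 (0.987), Pgm1 (0.976), Tpx2 (0.975), Aurkb (0.974) and Kif23 (0.973). Ncapd2, Tpx2, Aurkb and Kif23 are genes of mitosis, and all 6 had their highest value in the primary tumour of C1M3. The most opposite were Cxcr4 (r = -0.999), the chemokine receptor, Prcp (-0.982) and Il1r1 (-0.980). That mean profile is in effect the one of Cldn3, which moved from -0.57 to 0.82 around its mean while Cldn4 and Cldn7 stayed between -0.04 and 0.05. Every Cldn3 value lay under the limit of its own array, so these likenesses rest on signal in the range of silent genes. The 0.82 belonged to the primary tumour of C1M3, the array with the lowest array weight (0.264). Of the 832 genes, 70 had r above 0.9 and 43 below -0.9 with that profile. The same measure was applied to Mal2 and Cldn15 after their values were seen, with 29 genes above 0.9 and 1 below -0.9 for Mal2, and 6 above and 21 below for Cldn15. Mal2 was closest to Anxa1 (r = 0.994), which encodes annexin A1, Klhdc8a (0.964) and Acsl5 (0.962), an acyl-CoA synthetase, and most opposite to Pacc1 (-0.933). Anxa1 had 9.44, 11.57 and 9.72 among primary and 10.86, 12.01 and 10.13 among metastatic tumours, the same order of arrays as Mal2. Cldn15 was closest to Slc9a3r1 (r = 0.936), a scaffold of apical membranes, and Gabra3 (0.930), and most opposite to the glycolysis genes Pkm (-0.973) and Pgam1 (-0.946). Within the 9 genes, Mal2 and Tjp1 had r = 0.963, Mal2 and F11r 0.731, and Cldn3 and Cldn15 -0.869.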

How the data were processed

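RNA of 6 tumours was measured on microarrays, 1 per tumour, and the deposited log2 intensities per probe set were used; RMA and Transcriptome Analysis Console are named, without versions, in the submitters' processing notes. For the array, the genome build is not given in the sources used here. Of 72688 probe sets, 30604 carried 1 distinct symbol in the platform annotation, 2146 several and 39938 none, and only the first were used. Symbols of 827 were updated by Entrez identifier (GRCm38.p6 RefSeq table). The probe set with the highest mean was kept for each of 30142 genes.

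The main test was limma (version 3.58.1, R 4.3.3), tissue as the only term, two-sided, Benjamini-Hochberg over all genes tested, threshold 0.05. Differences are metastatic minus primary with the moderated SE, and the mouse as a block was an alternative. Tumours were paired by the donor label, which names 1 animal for both tumours of a pair. An F test of the mouse terms, in a fit with tissue and mouse, compared mice. Over all genes tested, the deviations of the 2 tumours from their group means correlated at 0.354 in C1M5, 0.0731 in C2M3 and -0.0523 in C1M3. Tumours of different mice had -0.301 to 0.127, a range that holds the values of C2M3 and C1M3. The fits were tested on simulated data. Some genes of the related lists were not analysed here.

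All 9 genes were named. From each related list the 3 genes with the widest range over arrays and the 2 with the widest difference were named, with Cldn5 and Epcam in every case. Genes most like Cldn3, Cldn4 and Cldn7 were the 6 highest and 3 lowest correlations. That search left out receptor segments, small nucleolar RNAs, microRNAs and genes with only a predicted or clone name. Other genes were named after their values were seen. The members and lists were chosen with earlier results of these data known. Alternatives were the block, centring or quantile normalization of arrays, a filter on dim genes, the mean of probe sets, array weights, the receptor gene level as a covariate, and leaving out arrays or mice.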

Additional observations from a re-analysis of the deposited data

How the results depend on the processing

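No member was called under any of the 16 alternative settings (smallest adjusted p 0.614), and 0 genes were called between groups in any of them, nor between mice in the scalings, dim-gene filter, probe set mean and array weights tried there (limma). The genes with an unadjusted p under 0.05 numbered 1269 as reported, 3180 with array weights, 597 with the dim-gene filter, and 679 to 4091 when arrays or mice were left out. With the mouse as a replicate block, 0 genes were called and no call changed. Centring each array shifted every difference down by 0.11, and brought the median over all genes from 0.02 to -0.09. The members' median difference was then -0.11, and -0.02 with quantile normalization. Leaving out arrays or mice gave -0.01 to 0.02. Cldn3, Cldn7, Tjp1 and Mal2 kept 1 sign in every setting that measured them, and the other 5 did not. Cldn4 was 0.01 and F11r -0.01 with array weights, and Cldn4 0.00 with the receptor covariate. Array weights, lowest for the C1M3 primary array (0.264), also brought Mal2 from 1.67 to 0.87, Tjp1 from 0.22 to 0.10 and Cldn3 from -0.41 to -0.25. Leaving out arrays or mice gave -0.28 to 0.06 for Cldn1, -0.03 to 0.02 for Cldn4, -0.15 to 0.59 for Cldn15, -0.01 to 0.00 for Ocln and -0.07 to 0.40 for F11r. The filter on dim genes removed Cldn1, Cldn3, Cldn4, Cldn7 and Ocln, so no median was computed there. The causes were not tested. Signal of Cldn1, Cldn3, Cldn4, Cldn7 and Ocln lay near that of silent genes, where arrays can understate differences, which was not tested here.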
